A study of Mus musculus with 6 samples.

Results

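Expression of 10 genes of mast cell proteases and receptors was followed tumor by tumor in colon tumors of mice, out of 54532 genes in the deposited table. They are the chymases Mcpt1, Mcpt2, Mcpt4 and Cma1, the carboxypeptidase Cpa3, the tryptases Tpsb2 and Tpsab1, both mast cell chains of the high-affinity IgE receptor, Fcer1a and Ms4a2, and the growth factor receptor Kit. The 10 genes were chosen by name with their values in these 6 tumors already known, so their differences are described here without a test. The control group, called WT in the labels, was 3 tumors of AOM+DSS-L mice of the genotype Tmem173fl/fl, whose STING gene Tmem173 bears loxP sites on either side. The other group was 3 tumors of Tmem173iΔmye AOM+DSS-L mice, which in addition carry Lyz2-Creert2, and both genotypes had the C57BL/6N background. Lyz2 drives this Cre in myeloid cells, and tamoxifen (TAM) switches it on. Mice of both groups received azoxymethane (AOM), a colon carcinogen, then 3 cycles of dextran sodium sulfate (DSS), which inflames the colon, and then TAM, so the controls received TAM as well but had no Cre. The comparison asks what removing STING from myeloid cells late, after tumors are present, does to tumor gene expression. The sources used here do not give the age of these mice at harvest. RNA came from whole tumor tissue, so fewer mast cells and less RNA per mast cell cannot be told apart.

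Mast cells are tissue-resident immune cells that store proteases in granules and release them when IgE bound to its receptor is cross-linked by antigen. In mice, mucosal mast cells of the gut epithelium and lamina propria are known for the chymases encoded by Mcpt1 and Mcpt2, whereas connective tissue mast cells of the deeper gut wall are known for the products of Mcpt4, Cma1, Tpsb2 and Tpsab1 and hold much of the Cpa3 product. Kit, the receptor for stem cell factor, is needed for mast cell survival and is also carried by interstitial cells of Cajal, the pacemaker cells of the gut muscle. Fcer1a and Ms4a2 are shared with basophils.

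The 4 chymase genes lie in one cluster on chromosome 14 of GRCm38, within 120863 bases from the start of Cma1 to the end of Mcpt4. Cma1 spans 55941451 to 55944675 on the minus strand, Mcpt1 spans 56017971 to 56020384 on the plus strand, Mcpt2 spans 56042041 to 56044642 on the plus strand and Mcpt4 spans 56059629 to 56062313 on the minus strand. The tryptase genes neighbor each other on chromosome 17, Tpsab1 from 25343245 to 25345562 on the minus strand and Tpsb2 from 25366550 to 25368094 on the plus strand. The other 4 genes are scattered. Cpa3 lies on chromosome 3 (20215620 to 20242181, minus strand), Fcer1a on chromosome 1 (173221284 to 173227214, minus strand), Ms4a2 on chromosome 19 (11615523 to 11623719, minus strand) and Kit on chromosome 5 (75574916 to 75656722, plus strand).

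Promoters of 7 of the 10 genes, from 250 bases before to 50 bases after the start of the gene, were in the RefSeq table used here (GRCm38.p6). Mcpt2, Tpsb2 and Tpsab1 were not among them. The 7 promoters were searched on both strands for GATAA, the core that GATA factors such as the mast cell factor GATA2 are known to bind, and for CANNTG, the E-box core bound by factors such as MITF. The 4 shown are a pair of chymase genes of the same cluster whose levels moved together, Cpa3, and Ms4a2 with its 3 matches. Each is printed 5′ to 3′ on the strand of the gene, with GATAA or its reverse complement TTATC in capitals. They lie at chr14:56017714-56018013 (plus strand) for Mcpt1, chr14:56062261-56062560 (minus strand) for Mcpt4, chr3:20242132-20242431 (minus strand) for Cpa3 and chr19:11623670-11623969 (minus strand) for Ms4a2.
Mcpt1: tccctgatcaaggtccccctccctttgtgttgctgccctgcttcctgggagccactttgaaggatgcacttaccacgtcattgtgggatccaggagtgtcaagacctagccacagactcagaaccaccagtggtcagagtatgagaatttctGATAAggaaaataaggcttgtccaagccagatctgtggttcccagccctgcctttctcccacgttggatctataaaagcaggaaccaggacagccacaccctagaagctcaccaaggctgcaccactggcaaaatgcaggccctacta
Mcpt4: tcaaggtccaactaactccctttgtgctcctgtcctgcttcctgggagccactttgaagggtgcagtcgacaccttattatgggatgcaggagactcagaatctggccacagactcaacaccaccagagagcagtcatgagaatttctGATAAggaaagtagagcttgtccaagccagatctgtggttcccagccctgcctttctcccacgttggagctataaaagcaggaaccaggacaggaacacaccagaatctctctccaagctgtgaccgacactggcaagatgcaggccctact
Cpa3: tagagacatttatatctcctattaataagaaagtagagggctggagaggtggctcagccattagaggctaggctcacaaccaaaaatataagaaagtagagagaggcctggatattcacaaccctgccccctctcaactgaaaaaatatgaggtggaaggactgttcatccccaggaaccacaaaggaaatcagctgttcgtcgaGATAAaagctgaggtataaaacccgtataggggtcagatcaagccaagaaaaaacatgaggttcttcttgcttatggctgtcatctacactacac
Ms4a2: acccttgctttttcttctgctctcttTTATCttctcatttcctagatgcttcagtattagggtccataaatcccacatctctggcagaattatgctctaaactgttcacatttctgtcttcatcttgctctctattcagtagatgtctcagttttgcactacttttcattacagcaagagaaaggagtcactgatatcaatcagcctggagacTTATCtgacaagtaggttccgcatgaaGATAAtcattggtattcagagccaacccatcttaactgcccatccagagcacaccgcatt

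GATAA was found in the promoters of 6 of these 7 genes, all but Kit, whereas 25.4% of all 32851 promoters of the table hold it. Counted from the start of the gene, the match lay at -98 in Mcpt1, -102 in Mcpt4, -45 in Cpa3, -194 in Cma1 and -92 in Fcer1a. The Ms4a2 promoter held 3 matches, at -224, -37 and -10, and 5.27% of all promoters hold 2 or more. CANNTG was found in the promoters of 4 of the 7 genes, against 72.3% of all promoters. The Mcpt1 and Mcpt4 promoters were 80.6% identical over their alignment and shared a run of 22 bases around the match, atgagaatttctGATAAggaaa. Other pairs of these promoters were between 41.9% and 50.8% identical. A match is a description of these letters and does not show that a factor binds there.

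Library totals were 15329810 to 16533732 counts. All 10 genes passed the filter on low values, a mean FPKM (fragments per length of transcript and library size) of at least 0.5 over the 6 tumors, as did 16426 genes in all. The deposited FPKM values are per gene length, so that levels of different genes can be set side by side. Reads of the targeted gene, Tmem173, overlapped between groups, ranging from 1705 to 2911 counts in Tmem173fl/fl and from 1953 to 2291 counts in Tmem173iΔmye. Whole tumor RNA therefore did not tell the genotypes apart by this gene. Reads of Y-linked genes were present in 1 Tmem173fl/fl tumor and in replicates 1 and 2 of the Tmem173iΔmye tumors, so the sexes were mixed within both groups. The 10 genes were detected in every tumor, and their summed FPKM was 240, 86.3 and 36.8 in Tmem173fl/fl replicates 1, 2 and 3 and 129, 52.3 and 926 in Tmem173iΔmye replicates 1, 2 and 3. The sum of the third Tmem173iΔmye tumor therefore stood apart, 25.2 times that of the lowest tumor, while the other 5 tumors of both groups were mixed in order.

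**Figure D1:**
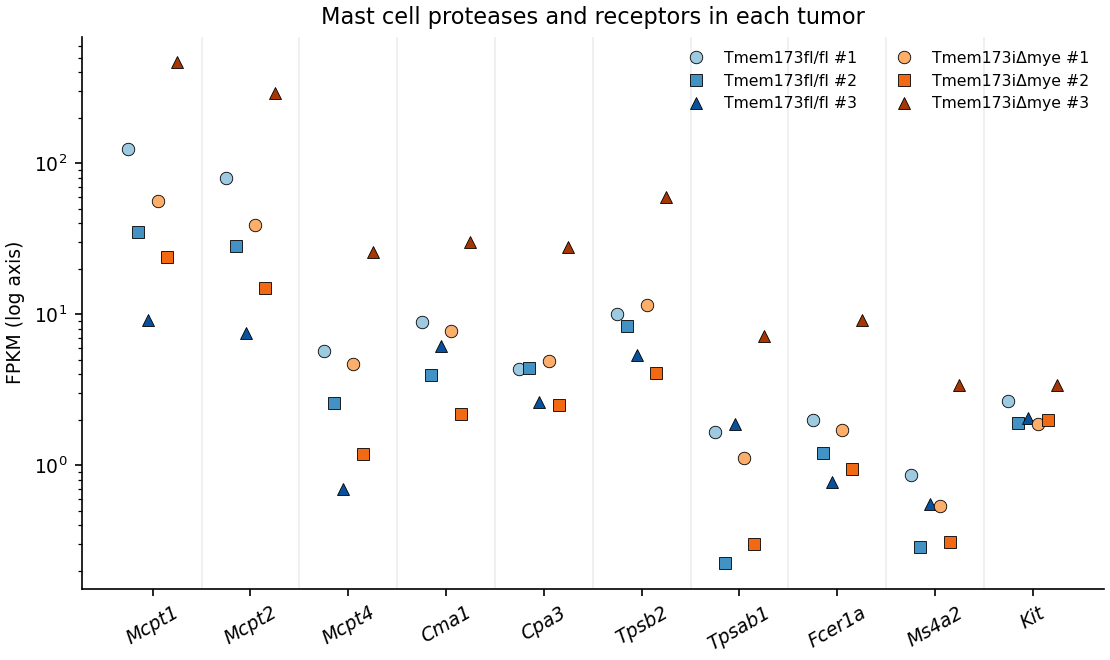
FPKM on a log axis of the 10 mast cell genes in each tumor, with 1 point per tumor, Tmem173fl/fl in blue and Tmem173iΔmye in orange. The third Tmem173iΔmye tumor is the highest point for each of the 10 genes, as it is for 8.43% of all genes past the filter. The 2 groups overlap for each of the 10.

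Mcpt1 and Mcpt2, the chymases of mucosal mast cells, were the most abundant of the 10 genes in every tumor. Mcpt1 had FPKM values of 124, 35.3 and 9.12 in Tmem173fl/fl replicates 1, 2 and 3 and of 56.2, 23.9 and 469 in Tmem173iΔmye replicates 1, 2 and 3. Mcpt2 had 80.1, 28.1 and 7.53 FPKM in the Tmem173fl/fl tumors and 39.1, 15.0 and 290 FPKM in the Tmem173iΔmye tumors, in the same order. For both genes the third Tmem173iΔmye tumor was highest, the first Tmem173fl/fl tumor came next and the third Tmem173fl/fl tumor was lowest, so the groups overlapped. The highest level of Mcpt1 was 3.80 times the second highest and 51.5 times the lowest, and for Mcpt2 these ratios were 3.62 and 38.5. The log2 fold change of Tmem173iΔmye over Tmem173fl/fl was 1.70 (SE 1.19) for Mcpt1 and 1.57 (SE 1.13) for Mcpt2. Without the third Tmem173iΔmye tumor it was -0.49 (SE 0.93) for Mcpt1 and -0.52 (SE 0.87) for Mcpt2.

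Mcpt4 and Cma1, the chymases of connective tissue mast cells, were present at lower levels. Mcpt4 had 5.66, 2.59 and 0.700 FPKM in Tmem173fl/fl replicates 1 to 3 and 4.66, 1.18 and 25.8 FPKM in Tmem173iΔmye replicates 1 to 3. Its order over the tumors was that of Mcpt1 and Mcpt2, from the third Tmem173fl/fl tumor at the bottom to the third Tmem173iΔmye tumor at the top. Cma1 had 8.81, 3.99 and 6.13 FPKM in the Tmem173fl/fl tumors and 7.68, 2.18 and 29.9 FPKM in the Tmem173iΔmye tumors. Here the third Tmem173fl/fl tumor lay in the middle of the tumors and the second Tmem173iΔmye tumor was lowest. The third Tmem173iΔmye tumor exceeded the next by 4.56 times for Mcpt4 and by 3.39 times for Cma1, and for both genes the groups overlapped. The log2 fold changes were 1.82 (SE 1.08) for Mcpt4 and 1.06 (SE 0.80) for Cma1, and without that tumor -0.04 (SE 0.88) and -0.36 (SE 0.58).

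Cpa3 encodes the carboxypeptidase that mast cell granules hold beside the chymases. It had 4.30, 4.41 and 2.63 FPKM in Tmem173fl/fl replicates 1 to 3 and 4.90, 2.51 and 27.8 FPKM in Tmem173iΔmye replicates 1 to 3. The other 5 tumors lay close together, in both groups, and the third Tmem173iΔmye tumor was 5.67 times the next, the widest such gap of the 10 genes. The log2 fold change was 1.63 (SE 0.81), and -0.03 (SE 0.42) without the third Tmem173iΔmye tumor. The short gene Mir7007 lies within Cpa3 on the same strand and reached at most 1.83 FPKM.

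Tpsb2, the main tryptase, followed the same course. It had 10.01, 8.35 and 5.41 FPKM in the Tmem173fl/fl tumors and 11.5, 4.05 and 60.0 FPKM in the Tmem173iΔmye tumors. The third Tmem173iΔmye tumor was 5.23 times the next, and the other tumors of both groups overlapped. Its log2 fold change was 1.67 (SE 0.85), and -0.03 (SE 0.49) without that tumor. Tpsab1 encodes the second tryptase, which C57BL/6 mice are known to lack as a protein because of a splice site change, and the mice studied here were of that background. It had 1.65, 0.223 and 1.88 FPKM in the Tmem173fl/fl tumors and 1.11, 0.298 and 7.17 FPKM in the Tmem173iΔmye tumors. The second tumor of each group was thus low, at 7 and 10 counts, and the third Tmem173iΔmye tumor was again highest, 3.81 times the next. The groups overlapped, with a log2 fold change of 1.18 (SE 1.09) and, without that tumor, of -0.84 (SE 0.92).

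Fcer1a encodes the IgE-binding α chain of the receptor, and Ms4a2 its signal-amplifying β chain. Fcer1a had 1.99, 1.21 and 0.777 FPKM in Tmem173fl/fl replicates 1 to 3 and 1.70, 0.939 and 9.13 FPKM in Tmem173iΔmye replicates 1 to 3. Ms4a2 had 0.865, 0.285 and 0.551 FPKM in the Tmem173fl/fl tumors and 0.537, 0.311 and 3.38 FPKM in the Tmem173iΔmye tumors. Both were highest in the third Tmem173iΔmye tumor, by 4.59 and 3.90 times over the next tumor, and the other tumors of both groups overlapped. The precision was limited by depth in the low tumors, with 13 to 31 counts of Fcer1a and 12 to 38 counts of Ms4a2 outside that tumor, against 144 and 150 counts in it. The log2 fold changes were 1.56 (SE 0.84) for Fcer1a and 1.30 (SE 0.88) for Ms4a2, and without that tumor -0.0051 (SE 0.58) and -0.42 (SE 0.60).

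Kit varied least. It had 2.67, 1.91 and 2.05 FPKM in the Tmem173fl/fl tumors and 1.89, 1.99 and 3.42 FPKM in the Tmem173iΔmye tumors. The third Tmem173iΔmye tumor was again the highest, but by 1.28 times over the next, and the lowest and highest tumors differed by 1.81 times. The log2 fold change was 0.14 (SE 0.27), and -0.19 (SE 0.23) without that tumor.

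Set against the whole table, 9 of the 10 genes had a log2 fold change of at least 1 in favor of Tmem173iΔmye, as did 3.12% of the 16426 genes tested. Their groups overlapped in all 10 cases, so that 0 of the 10 lay higher in all Tmem173iΔmye tumors than in all Tmem173fl/fl tumors, against 6.14% of all genes. With edgeR (quasi-likelihood, Benjamini-Hochberg), 0% of all genes had an adjusted p under 0.05, and the smallest adjusted p was 0.742. At an unadjusted p under 0.05 there were 1008 genes, and DESeq2 gave 28 genes at an adjusted p under 0.05. At the looser limits of the study, a log2 fold change of at least 1 in size with an unadjusted p under 0.05, 1.26% of all genes were higher and 0.864% lower in Tmem173iΔmye, and 0 of the 10 genes were among them. The median log2 fold change was 1.56 over the 10 genes and -0.0042 over all genes. Without the third Tmem173iΔmye tumor all 10 log2 fold changes were below 0, from -0.84 for Tpsab1 to -0.0051 for Fcer1a, with a median of -0.28.

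**Figure D2:**
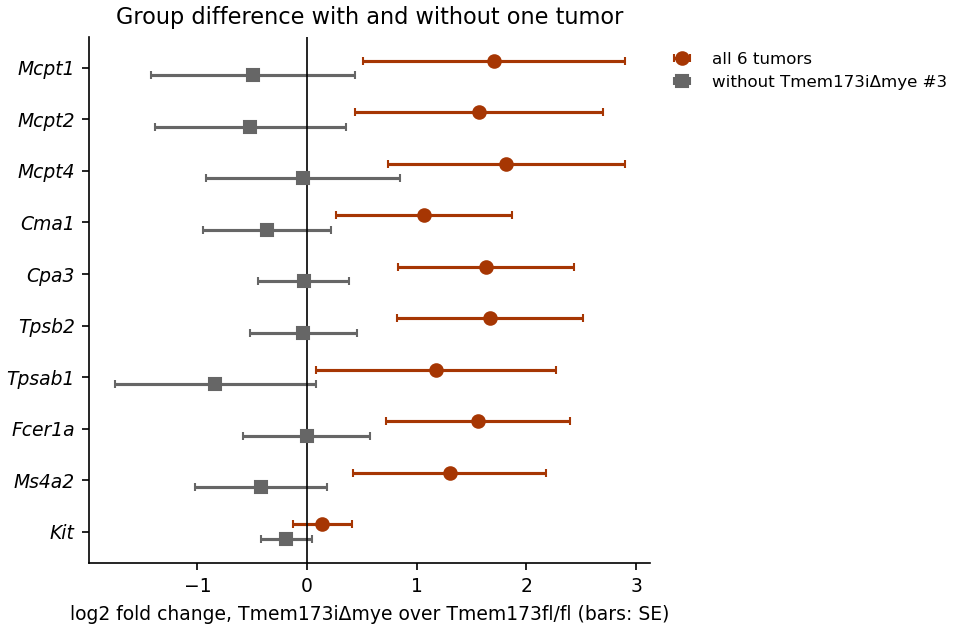
Log2 fold change of Tmem173iΔmye over Tmem173fl/fl for each of the 10 genes, with its standard error, from all 6 tumors and without the third Tmem173iΔmye tumor. With all tumors the values lie between 0.14 and 1.82, and without that tumor between -0.84 and -0.0051.

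The highest tumor was at least 3 times the second highest for 9 of the 10 genes, all but Kit, against 1.53% of all genes. That tumor was Tmem173iΔmye replicate 3 for each of the 9, and 0.11% of all genes, 18 in number, had such a peak in this tumor. These 18 were the 9 mast cell genes and 9 others, among them Cma2, a further chymase gene, and the pseudogenes Mcpt-ps1 and Gm5801, which lie in the same cluster on chromosome 14. Some of the others, Cma2 and Gm5801 among them, passed the filter on low values only through this tumor, so their peaks are not read as support. The third Tmem173iΔmye tumor was not rich in such peaks, since the count of genes at least 3 times above the second highest tumor was 22, 40 and 34 in the Tmem173fl/fl tumors and 121, 17 and 18 in the Tmem173iΔmye tumors. At the other end, the lowest tumor was Tmem173fl/fl replicate 3 for 4 of the 10 genes, Tmem173iΔmye replicate 2 for 3, Tmem173fl/fl replicate 2 for 2 and Tmem173iΔmye replicate 1 for 1.

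Ratios within a tumor do not depend on the scaling between tumors and showed which of the genes kept step. The FPKM ratio of Mcpt1 to Mcpt2 was 1.54, 1.26 and 1.21 in Tmem173fl/fl replicates 1 to 3 and 1.44, 1.59 and 1.62 in Tmem173iΔmye replicates 1 to 3. It spanned only 1.34-fold while Mcpt1 itself spanned 51.5-fold. The ratio of Tpsb2 to Cpa3 was 2.33, 1.89 and 2.05 in the Tmem173fl/fl tumors and 2.34, 1.61 and 2.16 in the Tmem173iΔmye tumors, a span of 1.45-fold. Fcer1a to Cpa3 lay between 0.274 and 0.462, and Mcpt4 to Mcpt1 between 0.0458 and 0.0829.

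Other pairs did not keep step. The FPKM ratio of Mcpt1 to Cpa3 was 28.7, 8.004 and 3.46 in Tmem173fl/fl replicates 1 to 3 and 11.5, 9.49 and 16.9 in Tmem173iΔmye replicates 1 to 3. This 8.29-fold span came from 2 Tmem173fl/fl tumors, the first with the highest ratio and the third with the lowest. Mcpt4 to Cma1 was 0.114 in the third Tmem173fl/fl tumor and between 0.544 and 0.865 in the other 5 tumors. Tpsab1 to Tpsb2 ranged from 0.0268 in the second to 0.348 in the third Tmem173fl/fl tumor. Kit to Cpa3 was lowest in the third Tmem173iΔmye tumor, at 0.123, and reached 0.793 in the second.

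The share of chymase FPKM that came from Mcpt1 and Mcpt2, rather than Mcpt4 and Cma1, was 93.4%, 90.6% and 70.9% in the Tmem173fl/fl tumors and 88.5%, 92.0% and 93.2% in the Tmem173iΔmye tumors. The third Tmem173fl/fl tumor was the lowest, and the share in the tumor with the most mast cell RNA was within the range of the other tumors. The means were 85.0% ± 12.2 (SD, n = 3) and 91.2% ± 2.42 (SD, n = 3), which overlapped.

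**Figure D3:**
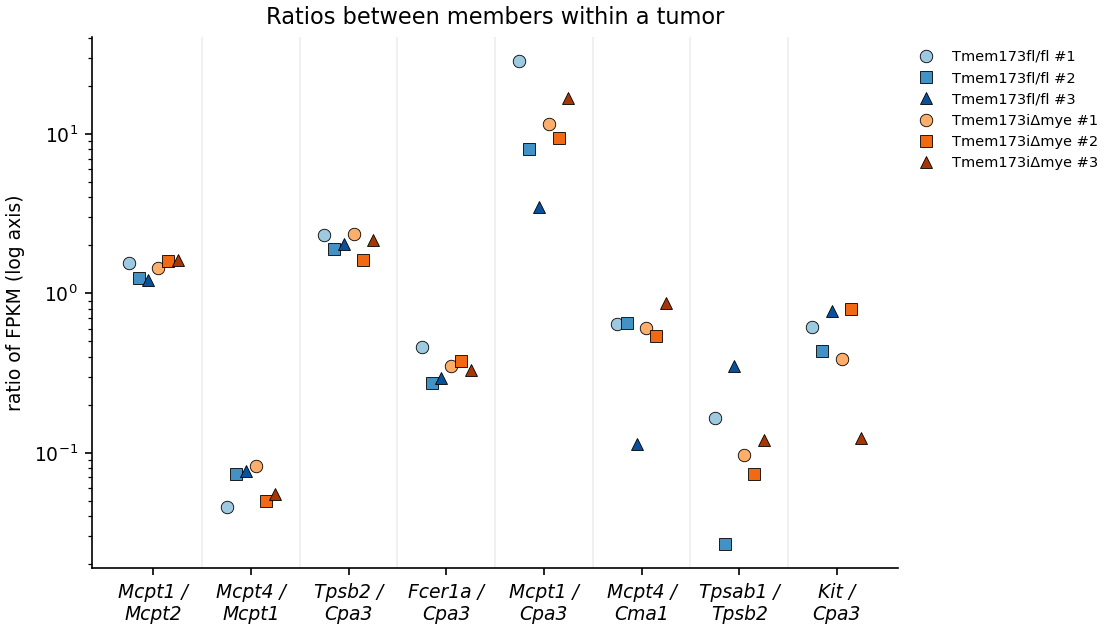
FPKM ratios between pairs of mast cell genes within each tumor on a log axis, with 1 point per tumor. Mcpt1 to Mcpt2 and Tpsb2 to Cpa3 stay within 1.34-fold and 1.45-fold over the 6 tumors, whereas Mcpt1 to Cpa3 spans 8.29-fold.

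As a description over 6 tumors that share the peak in 1 of them, Pearson's r of log2(CPM + 1) was 0.998 between Mcpt1 and Mcpt2, 0.98 between Mcpt1 and Mcpt4, 0.991 between Cpa3 and Tpsb2, 0.985 between Cpa3 and Fcer1a and 0.659 between Mcpt1 and Tpsab1. Among 3856 genes that spanned at least 1 on this scale, the genes outside the 10 most like Mcpt1 were Gm27149 (r = 0.954), Gm15344 (r = 0.950) and the antibody gene Igkv6-20 (r = 0.941). Those most like Cpa3 were Mcpt-ps1 (r = 0.986), Cma2 (r = 0.951) and Ceacam2 (r = 0.945). Gm27149 and Cma2 passed the filter on low values only through the third Tmem173iΔmye tumor, so their places are not read as support. Mcpt-ps1 had 1.62, 1.08 and 0.542 FPKM in Tmem173fl/fl replicates 1 to 3 and 1.40, 0.379 and 6.78 FPKM in Tmem173iΔmye replicates 1 to 3. It overlaps Cma2 on the opposite strand, and since the strand setting of the counting was not given, reads of these genes may not be told apart.

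The chymase genes are close in sequence, which bears on how reads were assigned. The Mcpt1 and Mcpt2 transcripts were 78.0% identical with a longest shared run of 49 bases, and Mcpt1 and Mcpt4 were 82.5% identical with a run of 46 bases. Mcpt4 and Cma2 shared a run of 100 bases, and Mcpt9 and Cma2 were 98.1% identical with a run of 196 bases. The values of Cma2 and Mcpt9 are therefore uncertain, and 5.48% of the 50-base windows of Mcpt4 occurred in Cma2. Tpsb2 and Tpsab1 were 78.2% identical where they aligned, with no shared run over 23 bases.

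Of 66 other genes of mast cell biology in 6 lists, 51 passed the filter, 0 had an adjusted p under 0.05 and 1 was past the looser limits. Their median log2 fold change was 0.16, and 36 of the 51 were above 0, against 49.4% of all genes. Granule genes had the highest median of the 6 lists. Of 9 in this list 8 passed and 7 were above 0, with a median of 0.51 that fell to 0.0019 without the third Tmem173iΔmye tumor. In that tumor Slc18a2 and Tph1 were highest, at 1.15 and 2.68 times the next tumor, and 8.43% of all genes were highest there. Cma2 and Mcpt9 were highest there too, but both passed the filter on low values only through that tumor. Their peaks are therefore not counted, though both enter the median and the number above 0. At a mean FPKM of at least 1, which leaves both out, the median over 6 genes was 0.28. Mcpt9 had 1.90 FPKM there and 0.0596 to 0.768 FPKM in the other tumors. It passed the filter on low values only through that tumor, so its peak is not read as support. Counts of Cma2 were 3, 5 and 3 in Tmem173fl/fl and 16, 3 and 50 in Tmem173iΔmye, so the groups overlapped. It was the gene past the looser limits, but it passed the filter on low values only through the third Tmem173iΔmye tumor, so its test is not read as support. Its log2 fold change was 2.60 (SE 0.95), and 1.32 (SE 0.85) without that tumor. Hdc, which makes histamine, had 1.49, 0.638 and 1.31 FPKM in the Tmem173fl/fl tumors and 2.61, 1.46 and 1.001 FPKM in the Tmem173iΔmye tumors. Srgn, the proteoglycan core that packs granule proteases, was likewise highest in the first Tmem173iΔmye tumor, at 25.7 FPKM against 12.5 FPKM in the third. Both genes are also made by other immune cells.

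Receptors and transcription factors of mast cells were mostly scarce, with 3 of 8 past the filter, all 3 above 0 and a median of 0.23. Gata2, a factor needed for the mast cell lineage, had 0.996, 0.978 and 0.740 FPKM in the Tmem173fl/fl tumors and 0.583, 1.75 and 2.96 FPKM in the Tmem173iΔmye tumors. It too was highest in the third Tmem173iΔmye tumor, while the first Tmem173iΔmye tumor was lowest of all. Il1rl1, the receptor for IL-33, spanned 9.46 to 19.6 FPKM in Tmem173fl/fl and 13.9 to 20.6 FPKM in Tmem173iΔmye. Mitf, another lineage factor, had a log2 fold change of 0.09 (SE 0.33).

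All 15 genes of IgE receptor signaling passed the filter and 10 were above 0, with a median of 0.02. In the third Tmem173iΔmye tumor 0 of them were highest, against 8.43% of all genes. Vav1, a signaling adaptor of blood cells, had 8.85, 8.63 and 9.02 FPKM in the Tmem173fl/fl tumors and 6.68, 6.66 and 6.57 FPKM in the Tmem173iΔmye tumors, without overlap. Its log2 fold change was -0.41 (SE 0.13, unadjusted p = 0.0136, adjusted p = 0.742 by edgeR), so it did not pass the adjusted test. The share of all genes lower without overlap was not determined, so the separation of Vav1 is not read as a result. The log2 fold change was 0.48 (SE 0.28) for Fcer1g, the γ chain that the IgE receptor shares with other Fc receptors, and 0.73 (SE 0.41) for Lat, an adaptor of mast cells and T cells.

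Of 21 ligands, growth factors and their receptors, 13 passed the filter and 7 were above 0, with a median of 0.12. The cytokine genes Il3, Il5 and Il9 had 0 counts in all 6 tumors, which at this depth does not show their absence. Il3ra, the α chain of the IL-3 receptor, had 4.29, 4.05 and 5.39 FPKM in the Tmem173fl/fl tumors and 7.55, 10.8 and 7.79 FPKM in the Tmem173iΔmye tumors. Csf2rb, the chain common to the IL-3, IL-5 and GM-CSF receptors, had 4.30, 4.06 and 4.39 FPKM and 4.93 to 8.01 FPKM, respectively. Neither gene overlapped between the groups, and neither peaked in the third Tmem173iΔmye tumor. They were the 2 of the 51 genes past the filter in the 6 lists that lay higher without overlap. Over all genes this share was 6.14%, so their separation is not read as a result. The log2 fold changes were 0.93 (SE 0.21, unadjusted p = 0.0024) for Il3ra and 0.59 (SE 0.19, unadjusted p = 0.0153) for Csf2rb, each with an adjusted p of 0.742 by edgeR. Csf2rb2, its IL-3-specific relative, had a log2 fold change of 0.66 (SE 0.25, unadjusted p = 0.0318, adjusted p = 0.742 by edgeR).

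All 6 genes of gut homing passed the filter and 5 were above 0, with a median of 0.38. Itgb7, the integrin chain with which mast cell progenitors enter the gut, had a log2 fold change of 0.64 (SE 0.31). The value was 0.32 (SE 0.23) for Itgae, another integrin chain, and 0.43 (SE 0.53) for the chemokine receptor Cxcr2. Of 7 enzymes of lipid mediators 6 passed and 4 were above 0, with a median of 0.29. Alox5, the first enzyme of leukotriene synthesis, had 0.811, 0.488 and 0.784 FPKM in the Tmem173fl/fl tumors and 0.414, 0.639 and 2.31 FPKM in the Tmem173iΔmye tumors, again with its peak in the third. The log2 fold change was 0.31 (SE 0.20) for Pla2g4a, which frees arachidonic acid, and -0.47 (SE 0.25) for the cyclooxygenase gene Ptgs1.

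**Figure D4:**
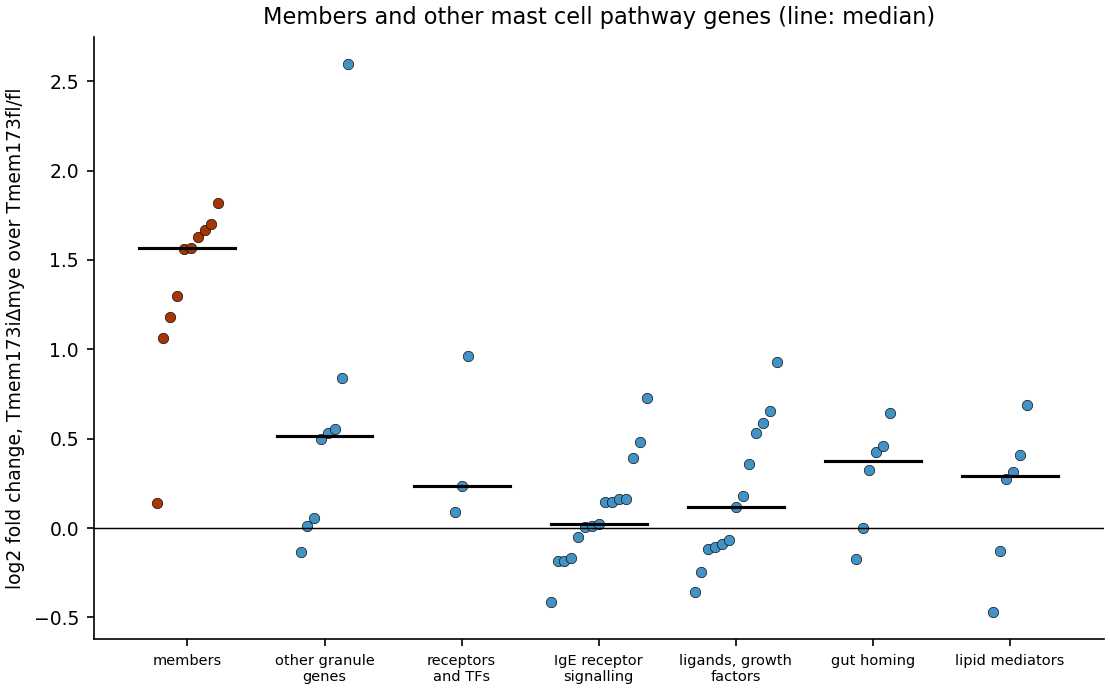
Log2 fold change of Tmem173iΔmye over Tmem173fl/fl for each gene past the filter, for the 10 mast cell genes (members, in dark orange) and the 6 lists of related genes, with 1 point per gene and the median of each list as a line. The 10 genes have a median of 1.56, whereas the medians of the 6 lists lie between 0.02 and 0.51.

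Markers of other cells that share some of the 10 genes or lie near mast cells were read beside them. None of 3 basophil markers passed the filter, and their summed FPKM was 0.229 to 0.812 in Tmem173fl/fl and 0.615 to 1.38 in Tmem173iΔmye, highest in the third Tmem173iΔmye tumor. The defining basophil proteases Mcpt8 and Prss34 had 5 counts each in that tumor, and Mcpt8 had 0 to 7 counts in the others. The third marker, the receptor gene Cd200r3, made up most of that sum. It had 29, 36 and 23 counts in Tmem173fl/fl and 44, 48 and 76 counts in Tmem173iΔmye, highest in the third Tmem173iΔmye tumor. The groups did not overlap, as for 6.14% of all genes past the filter in this direction. The log2 fold change of Cd200r3 was 0.92 (SE 0.41, unadjusted p = 0.0376 and adjusted p = 0.767 by edgeR with no filter). For eosinophils the sum of 4 markers was 0.265 to 1.08 in Tmem173fl/fl and 0.716 to 1.90 in Tmem173iΔmye, with Ccr3 at 0 counts in 4 of the 6 tumors. The 1 marker that passed was Prg2, a granule protein gene, with 12, 1 and 1 counts in Tmem173fl/fl and 22, 9 and 9 counts in Tmem173iΔmye, which overlapped. Its log2 fold change was 1.47 (SE 0.93), and 1.68 (SE 1.05) without the third Tmem173iΔmye tumor. Of 2 markers of interstitial cells of Cajal, which carry Kit, Ano1 passed the filter and Etv1 did not. Their sums were 34.2 to 36.5 in Tmem173fl/fl and 23.4 to 42.7 in Tmem173iΔmye, highest in the third Tmem173iΔmye tumor. Ano1 alone had 34.0 to 36.4 and 23.3 to 42.6 FPKM, so the sums rest on 1 gene and are a weak reading of these cells.

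Smooth muscle genes, a sign of deeper gut wall in a sample, moved apart between tumors of the same group. Their 6 markers summed to 164, 114 and 157 FPKM in Tmem173fl/fl replicates 1 to 3 and to 109, 92.7 and 151 FPKM in Tmem173iΔmye replicates 1 to 3. The third Tmem173iΔmye tumor was thus highest of its group and within the range of the Tmem173fl/fl tumors. Sums for fibroblasts were 176 to 224 and 182 to 270, for dendritic cells 3.08 to 5.91 and 4.95 to 6.26, for T and NK cells 4.01 to 6.36 and 6.18 to 12.0, and for colon epithelium 3528 to 3959 and 3765 to 4348, in Tmem173fl/fl and Tmem173iΔmye respectively. In these 4 lists the third Tmem173iΔmye tumor was not highest. None of the markers past the filter had an adjusted p under 0.05, and Des, a filament of muscle, was the one past the looser limits, at a log2 fold change of -1.01 (SE 0.39, unadjusted p = 0.0342, adjusted p = 0.742 by edgeR). Without the third Tmem173iΔmye tumor it was -1.65 (SE 0.23). The part of any of these cells in the levels of the 10 genes was not tested.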

How the data were processed

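RNA-seq libraries of 3 Tmem173fl/fl and 3 Tmem173iΔmye tumors were made with a NEBNext Ultra kit; whether strand was used in counting is not given in the sources used here. Per the labels, the authors processed reads with CASAVA 1.8, fastp, HISAT2 2.0.5 and featureCounts 1.5.0-p3 on GRCm38 and compared the groups with DESeq2 1.20.0. They deposited raw read counts per gene and FPKM values. Dividing the deposited counts by length, size factor (median of ratios) and the geometric mean total gave the FPKM values to within a relative 5.0e-07. The authors' own comparison (group means, log2 fold changes and p-values) was not used.

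The quasi-likelihood test of edgeR 4.0.16 under R 4.3.3, scaled by TMM and with group as its sole term, was run on these counts for 16426 genes at or above a mean FPKM of 0.5, and p-values were adjusted by Benjamini-Hochberg. All fold changes are Tmem173iΔmye over Tmem173fl/fl. Alternatives were DESeq2 1.42.0, limma 3.58.1 on log2(FPKM + 1) and log2(FPKM + 0.1), other filters, median-of-ratios scaling, the replicate number as a block, Y-linked reads as a covariate and leaving out each tumor. The 10 genes and the gene lists were chosen with earlier results of these data known. From each list of mast cell biology, up to 3 genes past the filter with the lowest unadjusted p are named, and for Mcpt1 and Cpa3 the 3 most correlated other genes. Other genes named were chosen after their values were seen.

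With 15329810 to 16533732 counts per tumor, genes at 3 counts or fewer carry no usable fold change, which covers counting error alone. The labels list separate tumors and the study states that samples were picked at random. On simulated counts with 200 of 16426 genes changed, edgeR called 108 genes, 97 of them changed in the right direction, and recovered 24% of genes set to a log2 change of 1 and 73% of genes set to 2. An exact test of 3 against 3 tumors cannot go below p = 0.1.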

Additional observations from a re-analysis of the deposited data

Results flagged for a closer look

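The tumors split by Y-linked reads into 1 Tmem173fl/fl and 2 Tmem173iΔmye tumors with them and 2 Tmem173fl/fl and 1 Tmem173iΔmye tumors without them. For 8 of the 10 mast cell genes, all but Cpa3 and Tpsb2, both Tmem173iΔmye tumors with Y-linked reads lay below the Tmem173fl/fl tumor with them, while the Tmem173iΔmye tumor without Y-linked reads lay above both Tmem173fl/fl tumors without them. The direction was thus opposite in the 2 sexes for these 8 genes. The same held for 1054 of all genes tested, which is 6.42% of them. The difference between the sexes was not tested, since the groups hold 1 tumor on one side of each comparison, and sex and the single high tumor cannot be told apart.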

How the results depend on the processing

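The median log2 fold change of the 10 genes was 1.56 and kept its sign in every alternative but 1. It ranged from -0.28 to 2.06 when 1 tumor was left out, with the lowest value without the third Tmem173iΔmye tumor. It was 0.71 with the replicate block and 1.30 with Y-linked reads as a covariate. The count of genes with an adjusted p under 0.05 went from 0 to 6 with no filter and 28 with DESeq2, and to between 0 and 1 leaving out 1 tumor. The count past the looser limits, 349, became 872 with no filter, 131 with limma on log2(FPKM + 1), 211 with Y-linked reads as a covariate, and 218 (without the third Tmem173fl/fl tumor) to 636 (without the first) leaving out 1 tumor. The replicate block gave 377 past these limits and 0 at an adjusted p under 0.05.

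Same-numbered tumors correlated at 0.31, 0.0085 and 0.15, so the numbers were not taken to pair the tumors. With the block the median of the granule genes was 0.14 and that of the ligand list 0.0624. The ligand list was 0.28 with no filter, 0.0625 with limma on log2(FPKM + 1) and 0.0624 on log2(FPKM + 0.1). The median of mast cell receptors and factors was 0.60 at a mean FPKM of at least 1, where 2 genes were left. Eosinophil markers were at 1.47 in the main setting from 1 gene, Prg2, which passed the filter only through the Tmem173iΔmye tumors. They gave 0.79 with no filter, which brought in all 4, and 0.58 with limma on log2(FPKM + 1). Basophil markers gave no value, since none passed the filter. With tryptases in the sum, the share from Mcpt1 and Mcpt2 in Tmem173iΔmye was 82.9%.

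Leaving out 1 tumor, the medians spanned 0.0019 to 0.66 for granule genes, 0.05 to 0.54 for receptors and factors, -0.04 to 0.18 for IgE signaling, -0.018 to 0.19 for ligands, 0.026 to 0.45 for homing, -0.043 to 0.39 for lipid enzymes, 0.91 to 3.58 for eosinophil markers, -0.89 to -0.35 for smooth muscle and 0.50 to 1.27 for T and NK cells. Of 372 recomputed values over 28 results, 327 stayed within the spread set for them. For fold changes and shares this spread was the SD between tumors within groups, which the third Tmem173iΔmye tumor widens for the 10 genes. It was 1.215 for their median, so even 0.71 with the replicate block counted as within it. The 327 therefore say little about how stable the values of the 10 genes are. Why the remaining values moved was not tested. Depth limits Tpsab1, Ms4a2, Fcer1a and Mcpt4 most of the 10 genes, since their lowest tumors held 7, 12, 13 and 13 counts.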

Other observations

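Genes on either side of the chymase cluster on chromosome 14 of GRCm38 were read beside it. Khnyn, a gene near Cma1 (55884947 to 55898775), had 12.3, 10.5 and 13.0 FPKM in Tmem173fl/fl replicates 1 to 3 and 11.6, 12.4 and 11.8 FPKM in Tmem173iΔmye replicates 1 to 3, and so hardly varied. On the other side lie the granzyme genes, proteases of cytotoxic lymphocytes that are relatives of the chymases. Gzmb (56258838 to 56262260) had 2.18, 1.21 and 0.955 FPKM in the Tmem173fl/fl tumors and 5.26, 3.61 and 3.92 FPKM in the Tmem173iΔmye tumors, with its highest value in the first Tmem173iΔmye tumor. The groups did not overlap, as for 6.14% of all genes past the filter in this direction, so the separation is not read as a result. By qPCR, the study reported the opposite direction, lower Gzmb in tumors of Tmem173iΔmye AOM+DSS-L mice. Gzmc, the next most abundant granzyme of this cluster, had 1.22, 0.0748 and 0.200 FPKM in the Tmem173fl/fl tumors and 1.48, 0.210 and 1.27 FPKM in the Tmem173iΔmye tumors. Ctsg, a granule protease that mast cells share with neutrophils, had 0 counts in 5 tumors and 2 counts in the third Tmem173iΔmye tumor. These genes were chosen after their values were seen.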
